A study of Mus musculus with 67 samples.

Results

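The genes described here carry membrane between the compartments of a cell and fuse it: synaptic vesicle proteins, SNARE proteins and their regulators, Rab and Arf GTPases, Rab GTPase-activating proteins, vacuolar protein sorting (Vps) proteins and sorting nexins. Members were chosen by name. A probe had to carry exactly 1 gene symbol in the platform annotation, and the symbol had to start with Syt, Stx, Vamp, Stxbp, Sv2, Vps, Snx or Tbc1d (without Tbc1d20), with Snap and its digits, with Rab or Arf and a digit, or be Syn1, Syn2, Syn3, Syp or Nsf. This gave 78 genes on 86 probes, of 4209 genes on 4875 probes with 1 symbol. The gene number of each of the 78 was found in the reference gene table with the same symbol. Where a gene had several probes, the probe with the highest mean over all arrays stood for it.

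They were measured in the cerebral cortex of C57BL/6 mice, 1 mouse per array, on 67 filter arrays with radiolabelled cDNA. Ad libitum (AL) groups held 5 mice of 17-21 days (2 male, 3 female), 5 mice of 33-44 days (3 male, 2 female), and 10 mice each of 6, 16 and 24 months, 5 of each sex. Caloric restriction (CR) groups held 9 mice at 6 months (4 male, 5 female), 10 at 16 months (5 of each sex) and 8 at 24 months (3 male, 5 female). CR mice ate full feed until 13 weeks of age and were then stepped down to 60% fortified feed, so the CR group of 6 months had the shortest exposure. Values are the deposited z-scores, in which each array was scaled to a mean of 0 and a standard deviation of 1, so a difference of 1 z is 1 standard deviation of the log intensities of an array and is not a fold change. Levels of different probes are not compared.

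Transport vesicles bud from one membrane with the help of Arf GTPases and coat proteins, are directed by Rab GTPases to tethers on the next, and fuse when SNARE proteins on both membranes zip together. Rab GTPases are switched off by GTPase-activating proteins, many of which carry a Tbc1d name. Retromer and sorting nexins return receptors from endosomes, and the Vps proteins of the HOPS and ESCRT complexes direct traffic to lysosomes. In cortical neurons the same machinery supports synaptic vesicle release and recycling at terminals.

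The list reached the release machinery of the synapse only in part. Of 17 core genes of release and endosome identity (among them Syt1, Stx1a, Vamp2, Snap25, Nsf, Syn1 and Syp), 3 had a probe with 1 symbol: Sv2a, Rab5a and Rab11a. The 78 members were 22 Rab GTPases and Rab-named partners, 18 Vps proteins, 12 sorting nexins, 11 Tbc1d proteins, 7 SNARE proteins (Snap23, Stx3, Stx5a, Stx7, Stx16, Stx17 and Vamp8), 4 synaptic vesicle proteins and relatives (Sv2a, Syn3, Syt11 and Sytl4), 2 SNARE regulators (Stxbp2 and Stxbp5) and 2 Arf GTPases (Arf3 and Arf4). The rule goes by name, and Vps72 is known as a subunit of a chromatin remodelling complex rather than a traffic protein. The mean z was above 0 for 41 members and at or below 0 for 37.

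Some features of the arrays touched these genes. The values shifted at array number 46: 45 arrays were numbered below it and 22 from it on, and every adult group had arrays on both sides, whereas all 5 arrays of 17-21 days were numbered below 46. Among the members, 39 shifted up and 39 down, with a median size of 0.22 z against 0.22 z over all 8448 probes. The array of 16 months AL male replicate 2 and that of 16 months AL female replicate 2 correlated at 0.99975 (the next closest pair reached 0.9892) and held identical values for 45 of the 78 members. They differed by less than any other pair and are counted as 1 sample, with n = 9, in every range, median and mean of a member at 16 months AL over both sexes, while the fits, the means by sex and the ranges of cell type markers kept both. Neighbouring spots deviated together: within groups, probes 22 apart in the file order correlated at 0.41, against a median of -0.0073 over 400 distances, and 17 members had another member among their near neighbours in the layout inferred from this.

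The shift with array number was larger than any difference between conditions for several members. Tbc1d10b, named as a GTPase-activating protein of the Rab family, had a mean of 1.47 on the arrays below 46 and 0.20 on those from 46 on, a shift of -1.28 within groups. Tbc1d23, which captures endosome-derived vesicles at the Golgi, shifted by -1.15 on the probe used and by -0.116 on its other probe. Rab11fip2, a partner of Rab11 on recycling endosomes, shifted by 0.75 and Tbc1d10a by 0.70. Within groups the median residual SD of the members was 0.21 z, and 0.15 z with the array number as a block. These are descriptions of the arrays and carry no test.

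**Figure D1:**
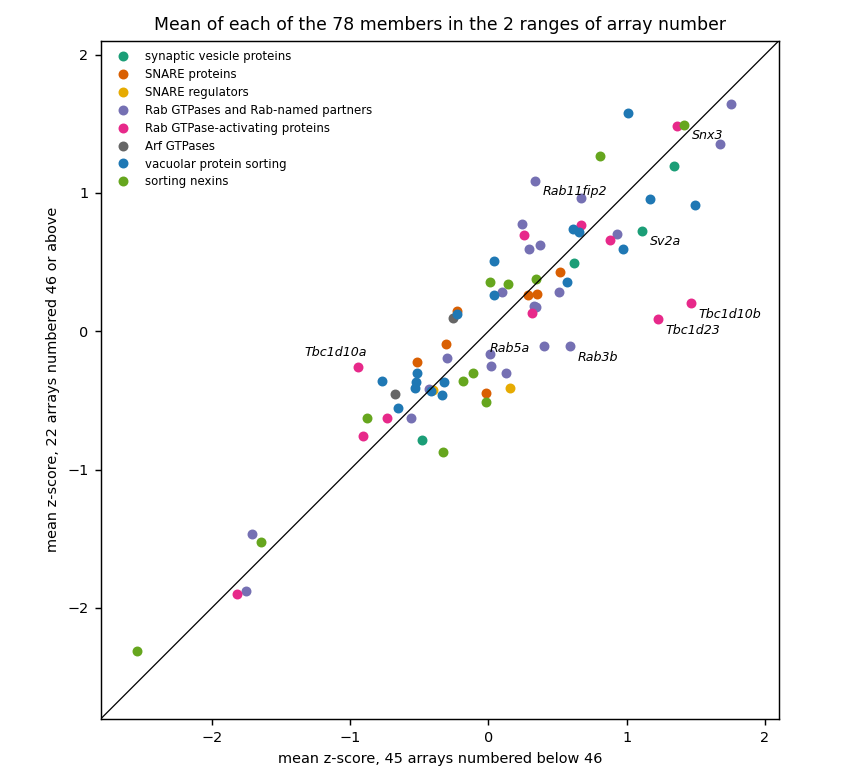
Mean z-score of each of the 78 members over the 45 arrays numbered below 46 (horizontal axis) and the 22 numbered 46 or above (vertical axis), coloured by role, with the line of equal means. Tbc1d10b and Tbc1d23 lie farthest below the line and Rab11fip2 and Tbc1d10a lie clearly above it, while Snx3 lies close to it.

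The comparison of 16 with 24 months in AL mice asked which genes differ between middle-aged and old cortex. By limma over all 67 arrays, 0 of 78 members passed an adjusted p of 0.05, and 0% of the 8448 probes did. At an unadjusted p under 0.05 stood 3 members (3.85%), Rab3d, Rab8a and Rab35, against 6.57% of all probes. All 3 were higher at 24 months (2.05% of probes were higher and 4.52% lower at this p), and they are the GTPases of regulated secretion, of transport to the plasma membrane, and of recycling from it. Over the 78 members the median difference was 0.018 z, and 45 differences were positive (57.7%, against 48.2% of all probes). In bulk tissue, fewer cells of a type and less RNA per cell cannot be told apart, here and in every comparison below.

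Rab3d, a Rab3 relative that marks secretory granules, had a lowest, median and highest z of 0.49, 0.65 and 0.99 in 9 samples of 16 months AL, and of 0.63, 0.92 and 1.15 in 10 of 24 months AL. The old group lay higher, but the ranges overlapped over most of their length. The fitted difference was 0.20 z (95% interval 0.048 to 0.35, unadjusted p = 0.0107, limma adjusted p = 0.646). It was 0.28 z on the arrays below 46 and 0.083 z on those from 46 on.

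Rab8a, which directs vesicles from the Golgi to the plasma membrane and the cilium, ranged from 0.25 to 0.96 with a median of 0.80 at 16 months AL, and from 0.71 to 1.17 with a median of 0.81 at 24 months. The medians lay close together, and the lower end of the middle-aged group set it apart. The fitted difference was 0.20 z (0.0092 to 0.40, unadjusted p = 0.0404). Without the near-identical arrays, both at 0.25, it was 0.10 z with an unadjusted p of 0.297.

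Rab35, a GTPase of fast endocytic recycling, ranged from -0.91 to -0.44 (median -0.62) at 16 months AL and from -0.63 to -0.34 (median -0.43) at 24 months. The groups overlapped between -0.63 and -0.44. The difference was 0.19 z (0.033 to 0.35, unadjusted p = 0.0189) and fell to 0.036 z after subtraction of neighbouring spots.

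The roles differed little from one another in this comparison. Of 18 Vps members 13 had positive differences (median 0.040 z), with Vps35, the core of retromer, at 0.13 z (-0.0066 to 0.27, unadjusted p = 0.0614). Its z ranged from 0.21 to 0.90 (median 0.67) at 16 months AL and from 0.55 to 0.93 (median 0.76) at 24 months. Of 12 sorting nexins 8 were positive (median 0.041 z), and Snx29 had the smallest p of them, at -0.12 z (unadjusted p = 0.104). The 22 Rab members were divided evenly, 11 and 11 (median -0.0020 z), and 5 of 11 Tbc1d members were positive (median -0.011 z), with Tbc1d15, a GTPase-activating protein for Rab7, at -0.16 z (unadjusted p = 0.0837, -0.21 z with p 0.0325 without the near-identical arrays, and -0.089 z without 24 months AL female replicate 3).

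Of the 7 SNARE members 4 were positive (median 0.033 z). Snap23, the widely expressed relative of Snap25, had the smallest p of them, at -0.13 z (-0.28 to 0.014, unadjusted p = 0.0743). Its z ran from 0.06 to 0.54 (median 0.39) at 16 months AL and from -0.13 to 0.40 (median 0.19) at 24 months. The median of the old group was the lower, and the ranges overlapped widely. Without the near-identical arrays the difference of Snap23 was -0.20 z with an unadjusted p of 0.0121. Of the 4 synaptic vesicle members 2 were positive, with Sytl4 (granuphilin, which docks secretory granules through Rab27) at -0.12 z (unadjusted p = 0.0702). Stxbp5 (tomosyn, which holds syntaxin away from fusion) differed by -0.010 z (unadjusted p = 0.878), and Arf3, a Golgi GTPase, by 0.16 z (unadjusted p = 0.148).

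The 3 measured core genes had small fitted differences between the 2 ages, with wide intervals. Sv2a, a membrane protein of all synaptic vesicles, had medians of 0.89 at 16 months AL and 1.07 at 24 months, with a difference of 0.053 z (-0.19 to 0.29). Rab5a, the GTPase of early endosomes, had medians of 0.31 and 0.33 and a difference of 0.018 z (-0.23 to 0.27). Rab11a, the GTPase of recycling endosomes, had medians of 0.69 and 0.52 and a difference of -0.076 z (-0.49 to 0.33). None passed the limma test (smallest unadjusted p of the 3 probes used, 0.662). At array 46 the z of Rab5a shifted by -0.51 and that of the Rab11a probe used by 0.55, more than any of these differences between ages. The other probe of Rab11a shifted by -0.115, the opposite direction.

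For 53 of the 78 members (67.9%, and 63.1% of all probes) the 95% interval of this difference stayed within 0.3 z to either side of 0, so larger differences lay outside it, and for 74 it stayed within 0.5 z. The 2 ranges of array number hold different mice, and 54 of 78 members (69.2%) had a difference of the same sign in both, against 66% of all probes. With array cycle (the passes of the array numbers through the groups) and array number as blocks, 11 members had an unadjusted p under 0.05, against 15.9% of all probes, and 0 passed the adjusted threshold, while 92 of all probes did. Rab3d and Snx4, a sorting nexin of endosomal recycling named here after its values were seen, came nearest, both with an adjusted p of 0.06.

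**Figure D2:**
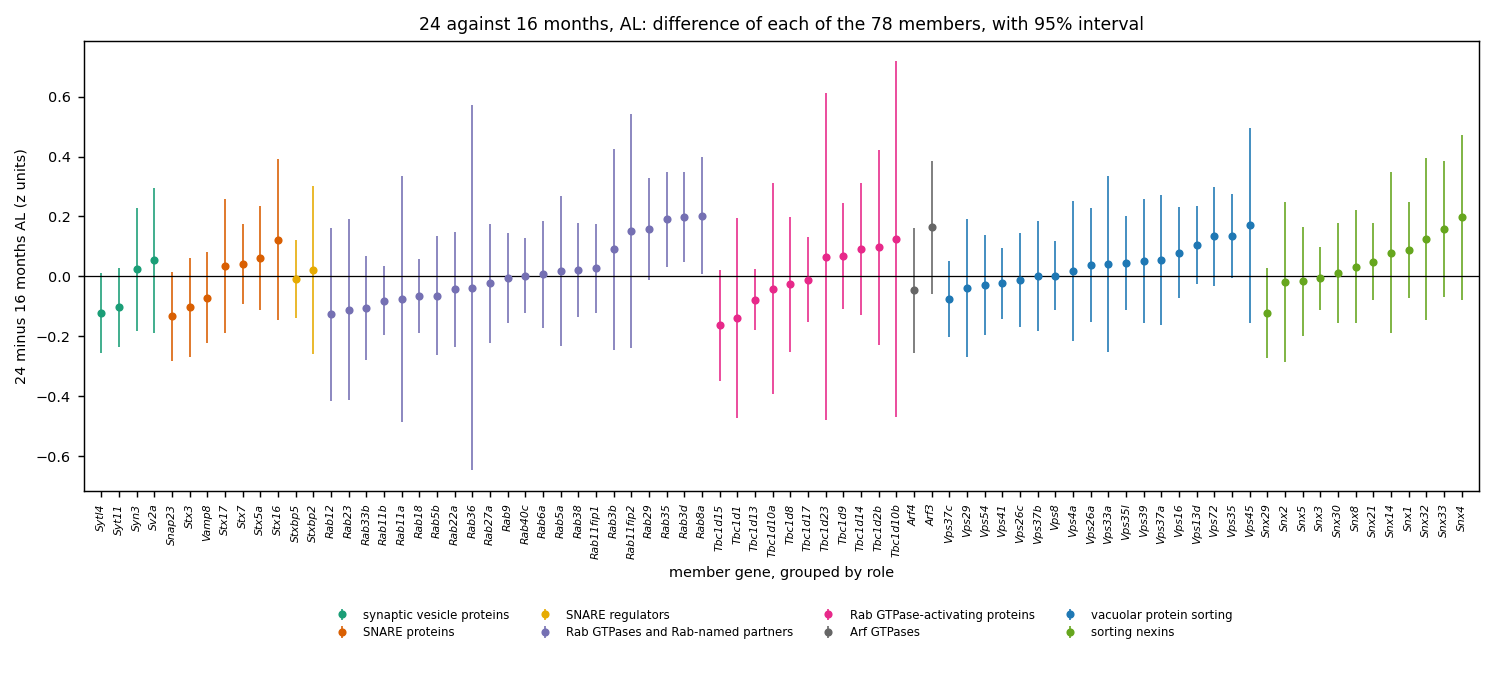
Difference of 24 minus 16 months AL in z units (vertical axis) for each of the 78 members, ordered within its role (horizontal axis); points are limma estimates and lines 95% intervals. The intervals of Rab3d, Rab8a and Rab35 stay above 0, the other 75 include it, and those of Tbc1d10b, Tbc1d23 and Rab36 are the widest.

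Between 6 and 16 months in AL mice, 0 of 78 members and 0% of all probes passed the adjusted limma test. At an unadjusted p under 0.05 stood 2 members (2.56%), Rab3d and Vamp8, against 3.04% of probes. Both were lower at 16 months (0.852% of probes were lower and 2.19% higher at this p). The median difference over the members was -0.027 z, and 31 of 78 differences were positive (39.7%, against 50.9% of probes).

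Rab3d had a median of 0.89 at 6 months AL (range 0.57 to 1.14), against 0.65 at 16 months. The difference was -0.16 z (-0.31 to -0.013, unadjusted p = 0.0338), and it was -0.24 z on the arrays below 46 and 0.035 z on those from 46 on. Rab3d was thus lowest in the middle-aged AL group, which both comparisons share, so its opposite differences in the 2 comparisons rest on the same 16-month arrays.

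Vamp8, a SNARE of endosomes, lysosomes and autophagosomes, ranged from 0.15 to 1.24 at 6 months AL with a median of 0.40, from 0.02 to 0.56 at 16 months with a median of 0.26, and from -0.01 to 0.47 at 24 months with a median of 0.26. A single array, 6 months AL male replicate 4, stood at 1.24, and the next lay at 0.59. The difference between 6 and 16 months was -0.15 z (-0.31 to -0.0015, unadjusted p = 0.0479), and -0.072 z without that array. Rab33b, a Golgi GTPase that also acts in autophagosome formation, differed by 0.17 z (unadjusted p = 0.0592).

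Between 6 and 24 months in AL mice, 0 of 78 members and 0% of probes passed the adjusted limma test. The 5 members at an unadjusted p under 0.05 (6.41%, against 2.89% of probes) were Vamp8, Tbc1d15, Rab11b and Snap23, lower at 24 months, and Vps13d, higher and named after its values were seen. At this p 1.91% of probes were lower and 0.982% higher. Of the neuron markers, Nefl was lower at 24 months (-0.17 z, unadjusted p = 0.0173) and Gap43 differed by 0.016 z, and their part in these values was not tested. The median difference over the members was 0.0135 z with 44 of 78 positive (49.8% of probes). Positive differences were held by 15 of the 18 Vps members (median 0.049 z), 8 of 12 sorting nexins and 2 of 2 Arf members. In the other roles they were held by 10 of 22 Rab, 4 of 11 Tbc1d, 3 of 7 SNARE, 2 of 4 synaptic vesicle and 0 of 2 SNARE regulator members.

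Vamp8 had the smallest p of the members, with a difference of -0.23 z (-0.38 to -0.072, unadjusted p = 0.00458, limma adjusted p = 1). It was -0.22 z on the arrays below 46, -0.17 z on those from 46 on, and -0.14 z without 6 months AL male replicate 4. Tbc1d15 ranged from 0.50 to 1.01 at 6 months AL (median 0.83) and from -0.07 to 0.75 at 24 months (median 0.64). Its old group reached lower, through 2 arrays at 0.16 and -0.07. The difference was -0.25 z (-0.43 to -0.061, unadjusted p = 0.0103), and it was -0.30 z below array 46 and -0.245 z from it on.

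Rab11b, a close relative of Rab11a, ranged from 1.65 to 1.85 at 6 months AL and from 1.25 to 1.79 at 24 months. At 24 months 4 of the 10 arrays lay below the lowest 6-month array, at 1.25, 1.48, 1.51 and 1.61, and all 4 were numbered from 46 on. The difference was -0.13 z (-0.25 to -0.018, unadjusted p = 0.024), -0.050 z on the arrays below 46 and -0.24 z on those from 46 on, and -0.085 z without 24 months AL female replicate 5, the array at 1.25.

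The first steps of the study's selection kept a few members in the AL ages. They ask for an unadjusted p under 0.05, a positive mean z, and a z-ratio of 1.5 or more in either direction. Their p is separate from the limma p over all 67 arrays given elsewhere, so a member can be kept with a limma p above 0.05. This selection in part left out the analysis of variance that the study's methods apply to the remaining genes. It kept 3 of 78 members between 6 and 24 months (Vamp8, Tbc1d15 and Snap23; 3.85%, against 1.5% of probes) and 1 between 16 and 24 months (Rab3d; 1.28%, against 2.04%). Between 6 and 16 months it kept 0 (0.414% of probes).

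The comparison between the juvenile ages gave the smallest limma adjusted p of any member. Between 17-21 and 33-44 days, 0 of 78 members passed the adjusted limma test, which 0.0947% of probes did (8 probes). The nearest was Rab33b with an adjusted p of 0.0912. At an unadjusted p under 0.05 stood 7 members (8.97%) against 14% of all probes, a share below that of the table, with no test of that difference. Of the 7, 3 were higher at 33-44 days (4.76% of probes) and 4 lower (9.28% of probes). The median member difference was -0.0046 z, and 38 of 78 were positive (50.5% of probes).

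Rab33b had z-scores of -1.65, -2.01, -1.42, -1.52 and -1.63 at 17-21 days and of -1.83, -2.20, -2.42, -1.73 and -2.30 at 33-44 days. All lay far below the array mean, 4 of the 5 younger arrays lay above every older one, and 17-21 days female replicate 2 lay among the older. The difference was -0.45 z (-0.70 to -0.20, unadjusted p = 0.000767), -0.32 z on the arrays below 46, and -0.20 z after subtraction of neighbouring spots.

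Snx3, a sorting nexin that works with retromer in returning Wntless to the Golgi, had z-scores of 1.44, 1.39, 1.51, 1.59 and 1.52 at 17-21 days and of 1.46, 1.07, 1.14, 1.29 and 1.40 at 33-44 days. The older group was lower, with its 2 highest arrays inside the younger range. The difference was -0.23 z (-0.38 to -0.078, unadjusted p = 0.00376, limma adjusted p = 0.182). With array number as a block it was -0.27 z with an adjusted p of 0.0485 (no other member was below 0.05 with array number, array cycle or both as blocks), and after subtraction of neighbouring spots it was -0.051 z.

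Syn3, a synapsin, of the family that tethers synaptic vesicles, had z-scores of -0.55, -0.65, -0.30, -0.29 and -0.41 at 17-21 days and of -0.26, -1.24, -0.81, -0.42 and -1.03 at 33-44 days. The older arrays spread more widely than the younger, and the 2 lowest of them were numbered from 46 on. The difference was -0.33 z (-0.62 to -0.032, unadjusted p = 0.0303), and on the arrays below 46 it was -0.013 z. All 4 red cell markers measured were also lower at 33-44 days (median -0.37 z), and Hbb-y (-0.42 z, unadjusted p = 6.03e-06) passed the adjusted limma test. Gpr37 (-0.35 z, 0.00224), Clu (-0.30 z, 0.0149) and Fcgr1 (-0.18 z, 0.027), markers of oligodendrocytes, astrocytes and microglia, were lower at an unadjusted p under 0.05. These lists did not move as wholes, and each held 1 marker that was higher. It stood at 0.135 z among 2 oligodendrocyte, 0.182 z among 3 astrocyte and 0.173 z among 4 microglia markers. The mean z of the red cell markers ran from -0.19 to 0.033 at 17-21 days and from -0.69 to -0.13 at 33-44 days, and the part of these cells in these differences was not tested.

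These juvenile groups are small, and single arrays decided the calls. Without 33-44 days female replicate 1, 4 members passed the adjusted limma test: Rab33b (-0.54 z), Snx3 (-0.33 z), Syn3 (-0.57 z) and Snx21 (-0.30 z, named after its values were seen). Without 33-44 days male replicate 2 or without 17-21 days female replicate 2, 1 member passed, Rab33b, at -0.55 and -0.53 z. Without 33-44 days female replicate 2 the differences of Snx3 and Syn3 were -0.13 and -0.082 z.

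Between 33-44 days and 6 months in AL mice, 0 of 78 members and 0% of probes passed the adjusted test, and 3 members (3.85%) stood at an unadjusted p under 0.05, against 5.31% of probes. These were Snx3 and Rab33b, higher at 6 months (3.1% of probes), and Rab23, lower (2.21% of probes). Of all 78 members 45 had positive differences (50.6% of probes). Only 20 of 78 members (25.6%, against 30.7% of probes) had a difference of the same sign in both ranges of array number. Snx3 ranged from 1.07 to 1.46 at 33-44 days and from 1.37 to 1.75 (median 1.49) at 6 months, overlapping only between 1.37 and 1.46. Its difference was 0.24 z (0.11 to 0.37, unadjusted p = 0.000658, limma adjusted p = 0.611), 0.16 z on the arrays below 46 and 0.32 z on those from 46 on. Without 33-44 days female replicate 1 it was 0.33 z and passed the adjusted test, and without 33-44 days female replicate 2 it was 0.14 z. All 4 red cell markers were higher at 6 months (median 0.16 z, Hbb-y 0.27 z with an unadjusted p of 0.000547). Of the other cell markers, Clu (astrocytes, 0.31 z, 0.0043), Gpr37 (oligodendrocytes, 0.25 z, 0.0104) and Fcgr1 (microglia, 0.20 z, 0.00419) were higher and Gap43 (neurons, -0.175 z, 0.0137) lower at an unadjusted p under 0.05. Each of these lists also held 1 marker that went the other way. It stood at -0.043 z among 3 astrocyte, -0.0963 z among 2 oligodendrocyte, -0.136 z among 4 microglia and 0.045 z among 2 neuron markers. The part of these cells in these differences was not tested.

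Rab33b differed by 0.22 z between these ages (unadjusted p = 0.0437, and 0.13 z without 33-44 days female replicate 2), the opposite sign to its juvenile difference, and both rest on the same 5 arrays of 33-44 days. Rab23, a GTPase that restrains hedgehog signalling, differed by -0.41 z (-0.78 to -0.031, unadjusted p = 0.0342). This value came from 1 array: Rab23 stood at 1.88 in 33-44 days male replicate 1 and between -0.64 and -0.35 in the other 4, and without that array the difference was -0.0090 z. The study's selection in part kept 1 member here (Snx3; 1.28%, against 0.639% of probes) and 0 between the juvenile ages (0.663%).

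**Figure D3:**
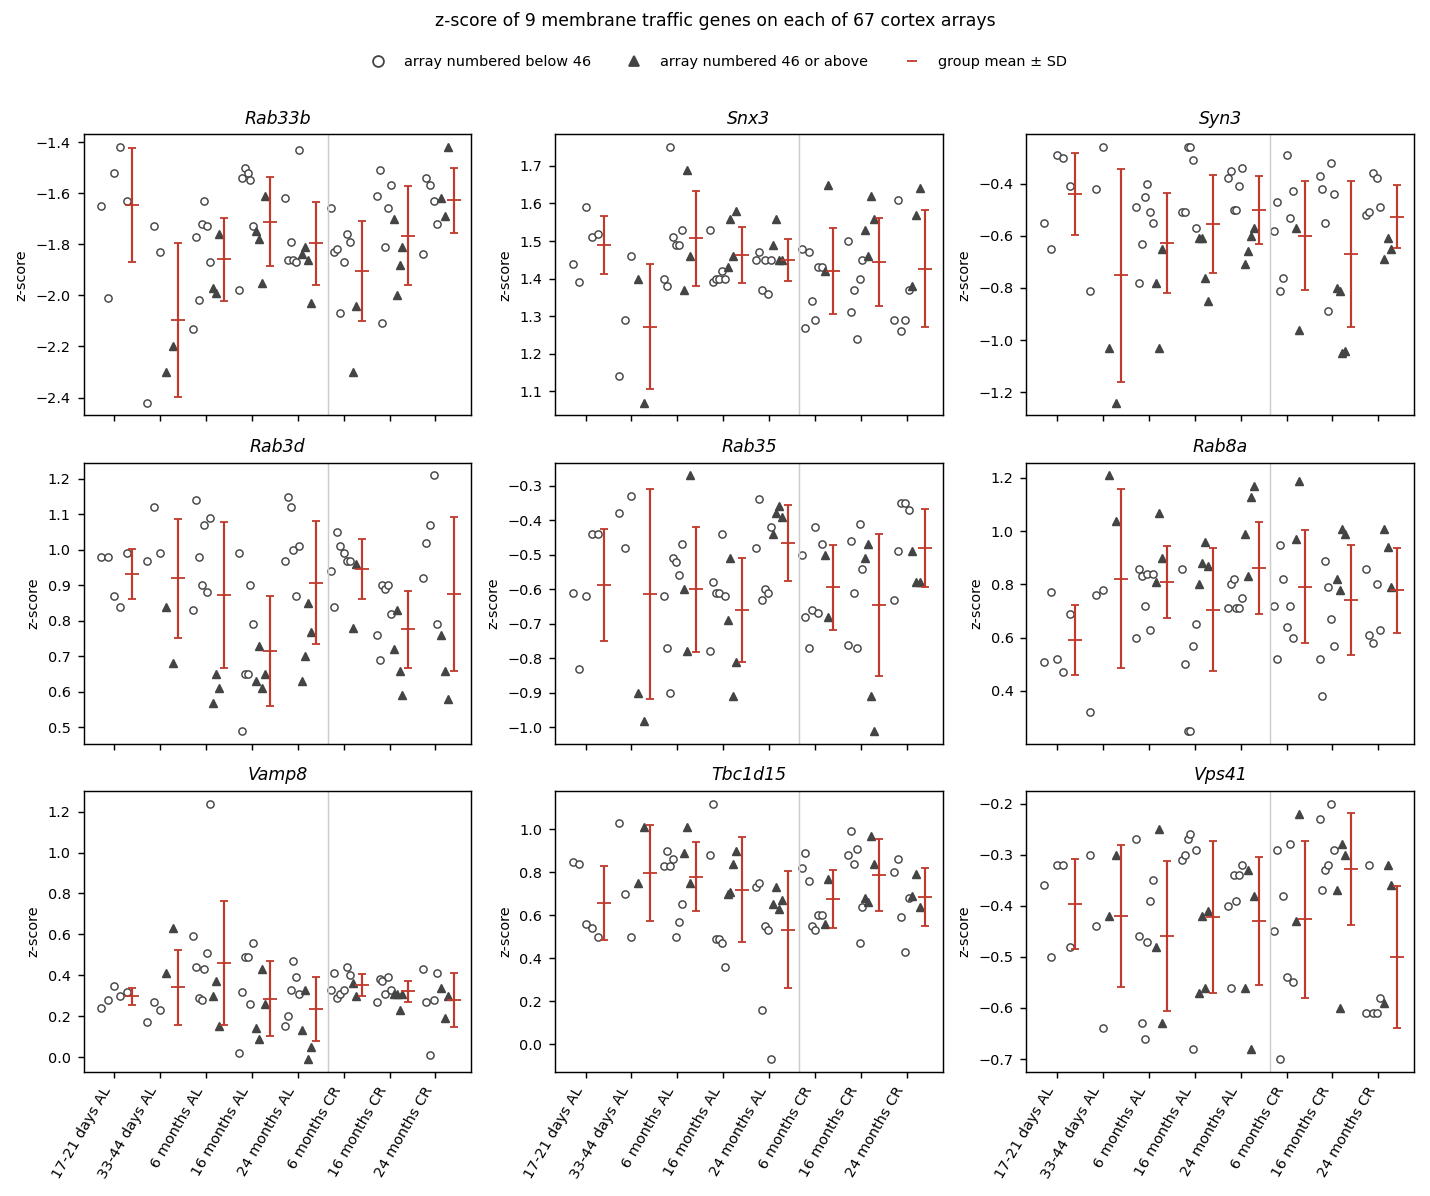
z-score (vertical axes) of 9 members on each of the 67 arrays by age and diet (horizontal axis); open circles are arrays numbered below 46, filled triangles those from 46 on, and red marks the group mean ± SD, with the near-identical arrays of 16 months AL averaged. Rab33b and Snx3 are lowest at 33-44 days, the single high array of Vamp8 stands at 6 months AL, and every pair of adult groups overlaps.

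The diets were compared at each adult age and over the 3 ages together, asking which genes differ with restricted feeding. The study's selection in part kept 0 members in each of the 4 diet comparisons (0.343%, 0.118% and 0.485% of probes at 6, 16 and 24 months and 0.355% over the ages) and 0 in the interaction described below (0.26%). Over the 3 ages, 0 of 78 members and 0% of probes passed the adjusted limma test, and 0 members had an unadjusted p under 0.05, against 0.71% of probes. In both ranges of array number 36 of 78 members (46.2%) had a difference of the same sign, against 46.1% of probes. The median member difference was -0.0034 z, with 38 of 78 positive (49.5% of probes). Its intervals were as narrow as those between the sexes and narrower than in the remaining comparisons: for 64 members (82.1%, and 80% of probes) the 95% interval stayed within 0.2 z of 0, and for all 78 within 0.5 z.

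The members with the smallest p over the 3 ages were Snx29 (-0.079 z, -0.17 to 0.011, unadjusted p = 0.0828), Snx3 (-0.049 z, unadjusted p = 0.125) and Vps4a, the ATPase that takes apart ESCRT-III (-0.10 z, -0.24 to 0.037, unadjusted p = 0.145). Vps4a had medians of 0.14, 0.16 and 0.20 in AL mice of 6, 16 and 24 months and of 0.08, 0.13 and 0.045 in CR mice of these ages. The CR median was the lower at each age, within ranges that overlapped almost fully. With array number as a block, 3 of 78 members and 127 of 8448 probes had an unadjusted p under 0.05 over the 3 ages. Vps4a was among them, with a difference of -0.087 z, an unadjusted p of 0.00483 and a limma adjusted p of 1.

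Within the other roles, the smallest p-values over the 3 ages belonged to Tbc1d1, a GTPase-activating protein of glucose transporter traffic (-0.12 z, unadjusted p = 0.252), Sytl4 (0.044 z, 0.274), Rab18, a GTPase of lipid droplets (0.037 z, 0.318), Stx5a, the syntaxin of the Golgi (-0.033 z, 0.531), Stxbp5 (0.022 z, 0.572) and Arf3 (-0.036 z, 0.588). Sv2a differed by -0.019 z (-0.16 to 0.13), Rab5a by -0.064 z (-0.21 to 0.086) and Rab11a by 0.039 z (-0.21 to 0.28). All 4 microglia markers measured were lower in CR mice over the 3 ages (median -0.065 z, smallest p Fcgr1 at 0.0381 unadjusted); their mean z ran from 0.23 to 0.54 in adult AL arrays and from 0.15 to 0.54 in CR arrays, and their part in the members' values was not tested.

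**Figure D4:**
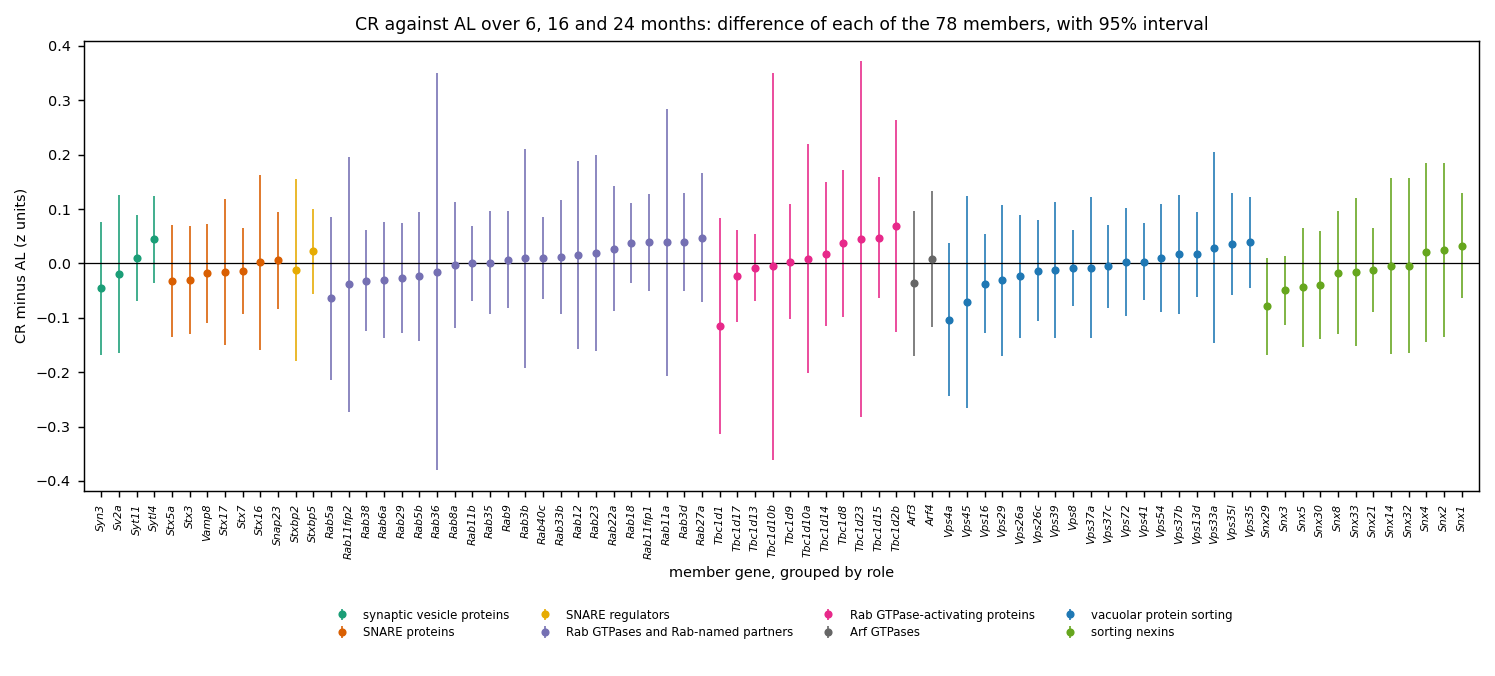
Difference of CR minus AL in z units over 6, 16 and 24 months (vertical axis) for each of the 78 members, ordered within its role (horizontal axis); points are limma estimates and lines 95% intervals. Every interval includes 0, and 64 of 78 stay within 0.2 z of it.

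At 6 months of age 0 of 78 members and 0% of probes passed, with 0 members and 0.462% of probes at an unadjusted p under 0.05 and 33 positive differences (42.3%, against 50.9% of probes). Snx3 (-0.088 z, unadjusted p = 0.113), Vamp8 (-0.11 z, 0.166) and Snx30 (-0.11 z, 0.186) came nearest. Vamp8 in CR mice ran only from 0.29 to 0.44, inside the AL range of 0.15 to 1.24, and without 6 months AL male replicate 4 its difference was -0.028 z.

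At 16 months 0 of 78 members and 0% of probes passed, with 0 members and 1.03% of probes at an unadjusted p under 0.05 and 40 positive differences (51.3%, against 49.4% of probes). Tbc1d1 came nearest, at -0.33 z (-0.66 to 0.0051, unadjusted p = 0.0535), followed by Syn3 (-0.14 z, 0.163) and Rab12, a GTPase that leads receptors from recycling endosomes to lysosomes (-0.20 z, 0.179). Tbc1d1 ranged from -0.17 to 1.565 in AL and from -0.32 to 0.79 in CR mice, where the highest AL value was the mean of the near-identical arrays. Without them the difference of Tbc1d1 was -0.093 z and that of Rab12, whose highest value of 0.99 was also theirs, was 0.028 z. Of the neuron markers, Nefl was higher in CR mice (0.143 z, limma unadjusted p = 0.0402) and Gap43 differed by -0.046 z, and their part in these values was not tested.

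At 24 months 0 of 78 members and 0% of probes passed, and 1 member (1.28%), Sytl4, had an unadjusted p under 0.05, against 1.04% of probes, with 35 positive differences (44.9%, against 48.3% of probes). Sytl4 ranged from 0.19 to 0.68 (median 0.54) in AL mice and from 0.47 to 0.88 (median 0.62) in CR mice. The CR group was shifted up but shared the stretch from 0.47 to 0.68 with the AL group. The difference was 0.16 z (0.021 to 0.31, unadjusted p = 0.0259, limma adjusted p = 1), 0.12 z below array 46 and 0.20 z from it on, and 0.061 z after subtraction of neighbouring spots with both blocks. Rab33b (0.16 z, 0.0977) and Tbc1d15 (0.15 z, 0.13) followed, and Tbc1d15 was at 0.079 z without 24 months AL female replicate 3, at -0.07 the lowest AL array.

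Between 16 and 24 months in CR mice, 0 of 78 members and 0% of probes passed the adjusted limma test. At an unadjusted p under 0.05 stood 3 members (3.85%), Vps41, Rab22a and Snx29, all lower at 24 months, against 4.15% of probes (2.38% lower and 1.78% higher). The median member difference was 0.0073 z, with 41 of 78 positive (47.1% of probes). The 24 months CR group held 3 males of the same age, 673 days. Of the 2 neuron markers measured, Nefl was lower at 24 months (-0.19 z, unadjusted p = 0.0117) and Gap43 differed by -0.013 z; their mean z ran from -0.265 to -0.115 at 16 months CR and from -0.415 to -0.135 at 24 months, and their part in these values was not tested.

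Vps41, a subunit of the HOPS tether of lysosomes, ranged from -0.60 to -0.20 (median -0.31) at 16 months CR and from -0.61 to -0.32 (median -0.585) at 24 months. In the old group 5 of the 8 arrays lay between -0.61 and -0.58, and the single low array at 16 months (female replicate 4) lay at -0.60. The difference was -0.19 z (-0.32 to -0.063, unadjusted p = 0.00418, limma adjusted p = 0.999), -0.27 z below array 46 and -0.078 z from it on. After subtraction of neighbouring spots it was -0.031 z, and the second probe of Vps41 gave 0.35 z (unadjusted p = 0.128).

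Rab22a, a GTPase of early endosomes, differed by -0.23 z (-0.43 to -0.019, unadjusted p = 0.0327). It stood at 1.33 in 16 months CR male replicate 4, and without that array the difference was -0.10 z. Snx29 had medians of 0.225 at 16 months CR and 0.145 at 24 months (difference -0.17 z, -0.33 to -0.0092, unadjusted p = 0.0386), and -0.097 z without 24 months CR male replicate 1. The study's selection in part kept 1 member, Snx29 (1.28%, against 1.29% of probes).

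Whether the change from 16 to 24 months differed between the diets was tested as an interaction. It passed for 0 of 78 members and 0% of probes, with 0 members and 0.888% of probes at an unadjusted p under 0.05 and 35 positive differences (44.9%, against 49.4% of probes). Vps41 (-0.17 z, -0.34 to 0.0065, unadjusted p = 0.0588), Rab33b (0.23 z, 0.0741) and Rab12 (0.34 z, 0.111) came nearest, and Rab12 was at 0.12 z without the near-identical arrays. Its intervals were the widest of the 12 comparisons (in the median reaching 0.271 z to either side, against 0.266 z between the juvenile ages): for 26 members (33.3%) the interval stayed within 0.3 z of 0.

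Females and males of the 12 adult groups differed in 0 of 78 members and 0% of probes by the adjusted limma test, with 0 members and 0.971% of probes at an unadjusted p under 0.05. The median member difference, female minus male, was -0.0014 z, with 38 of 78 positive (51.8% of probes). Snx29 came nearest (0.085 z, -0.0046 to 0.17, unadjusted p = 0.0625), before Vps41 (0.056 z, 0.12) and Tbc1d13, a GTPase-activating protein of Rab35 (0.041 z, 0.184). Snx29 had female means of 0.22, 0.36 and 0.22 and male means of 0.27, 0.23 and 0.13 in AL mice of 6, 16 and 24 months, and female means of 0.24, 0.31 and 0.10 and male means of 0.070, 0.19 and 0.053 in CR mice of these ages. Females were higher in 5 of these 6 pairs and lower at 6 months AL. The study's selection in part, whose p is not this limma p, kept Snx29 as its 1 member (1.28%, against 0.651% of probes). For 63 members (80.8%) the interval stayed within 0.2 z of 0.

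A check within the array was possible for the 8 members with 2 probes: Rab11a, Rab11b, Rab12, Rab40c, Snx5, Snx8, Tbc1d23 and Vps41. Between 16 and 24 months AL the probes of 5 of the 8 genes differed in opposite directions, over the diets 4 did, between 16 and 24 months CR 6 did, and between the juvenile ages 2 did. Rab11a gave 0.42 z with its first probe and -0.12 z with its second between the juvenile ages, and Snx5, a partner of retromer, gave -0.24 and -0.63 z, of which the second had an unadjusted p of 0.0331. Rab12 gave 0.34 z and -0.0080 z in the interaction. Between 16 and 24 months AL the probes used gave -0.082 z for Rab11b, -0.13 z for Rab12, 0.0020 z for Rab40c, -0.017 z for Snx5, 0.032 z for Snx8, 0.065 z for Tbc1d23 and -0.023 z for Vps41, and each interval included 0. Whether the probes of a gene read the same transcripts is not given in the sources used here.

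**Figure D5:**
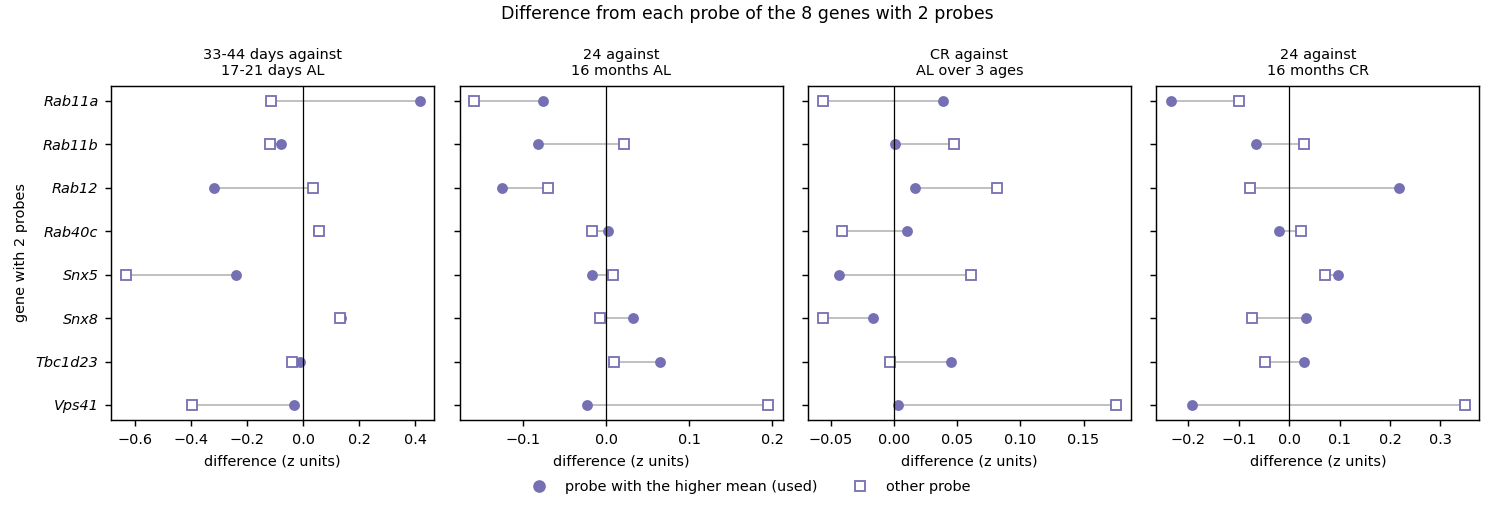
Difference in z units (horizontal axes) from the probe used (filled circle) and the other probe (open square) of the 8 genes with 2 probes (vertical axis), in 4 comparisons; no error is drawn. The gap of Vps41 between 16 and 24 months CR runs from -0.19 to 0.35 z, and the probes of Snx8 coincide between the juvenile ages.

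Further genes of the pathway, in 3 lists, were read in the same fits. Of 50 further genes of docking and priming 13 were measured, of 61 coat and endocytosis genes 23, and of 66 tethers, ESCRT subunits and Rab cycle genes 23. Members of these lists that passed the adjusted limma test numbered 0 in each of the 12 comparisons. Between the juvenile ages 4 of 13, 0 of 23 and 7 of 23 had an unadjusted p under 0.05, against 14% of all probes. Among them were Chmp2b, a subunit of ESCRT-III, at -0.43 z (unadjusted p = 0.00401) and Gosr2, a SNARE of the Golgi, at 0.455 z (unadjusted p = 0.0152). Between 16 and 24 months AL, 7, 10 and 14 of them had positive differences (medians 0.039, -0.014 and 0.010 z). At an unadjusted p under 0.05 in that comparison (6.57% of all probes) stood 0 of 13, 4 of 23 and 0 of 23, with Ap1b1, a subunit of the clathrin adaptor of the Golgi, at -0.16 z (unadjusted p = 0.012). Over the diets 8, 13 and 7 were positive, and Exoc8, a subunit of the exocyst tether, was the 1 gene of the lists at an unadjusted p under 0.05, against 0.71% of all probes (0.081 z, unadjusted p = 0.0338). Between 16 and 24 months CR, 1 of 13, 2 of 23 and 1 of 23 genes of the 3 lists had an unadjusted p under 0.05, against 4.15% of all probes. The smallest p was that of Cltc, the clathrin heavy chain, at -0.20 z (unadjusted p = 0.00713).

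Markers of the cells of cortex were few on this filter set: 2 of 14 neuron markers (Nefl and Gap43), 3 of 10 astrocyte, 2 of 10 oligodendrocyte, 4 of 10 microglia and 4 of 8 red cell markers had a probe with 1 symbol. A z-score has no true zero, so absence of a marker could not be read. Between 16 and 24 months AL both neuron markers had negative differences (median -0.057 z) and all 4 microglia markers positive ones (median 0.056 z). Both oligodendrocyte markers also had negative differences (median -0.0605 z). Positive differences were held by 2 of 3 astrocyte markers (median 0.001 z) and 2 of 4 red cell markers (median 0.0125 z). Of the markers in these lists 0 stood at an unadjusted p under 0.05. Over the 10 arrays of each age, the mean z of the neuron markers ran from -0.47 to -0.10 at 16 months and from -0.38 to -0.21 at 24 months, and that of the microglia markers from 0.28 to 0.51 and from 0.35 to 0.53. The part of any of these cell types in the members' values was not tested.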

How the data were processed

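Cortical RNA of single mice was labelled with radioactive phosphorus (33P per the labels, another isotope in the methods) and hybridised to cDNA filter arrays, 1 array per mouse. The authors log-transformed the spot intensities and expressed each array as z-scores, and these deposited score values, 8448 probes on 67 arrays with 1 missing value, were used as they stand (array means -2e-04 to 9e-05). No scan intensities were used, so signal over background is unknown, and a genome build is not given in the sources used here. Every value column belonged to a labelled sample.

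Probes were named through the platform annotation (4875 with 1 symbol, 224 with several, 3349 with none). All probes were fitted with limma 3.58.1 in R 4.3.3, 1 mean for each of 16 groups of age, diet and sex (2 to 5 arrays each), sexes weighted equally, with eBayes, two-sided tests, and Benjamini-Hochberg adjustment over 8448 probes in each of 12 comparisons, at a threshold of 0.05. The script was tested on simulated data. Intervals are 95%.

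The members and lists were chosen with earlier results of these data known, among them the shift at array 46, the near-identical arrays and the spot layout (16 blocks of 24 by 22 spots). Named genes are, per comparison, those past the threshold or else the 3 with the smallest p, for 24 against 16 months AL and for the diets also the smallest p of each role, the measured core genes, and genes with 2 probes. Each array has its own sample name, age and sex in the labels and was taken as 1 mouse, and p-values measure the spread between arrays. Alternatives were array cycle, array number or both as blocks, subtraction of the mean deviation of neighbours in a window 5 spots wide (with and without blocks), other centring, a filter on mean z, only the groups compared, each range of array number alone, and leaving out arrays.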

Additional observations from a re-analysis of the deposited data

Results flagged for a closer look

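In 17 of 256 combinations of a named gene and a group of age and diet (6.64%), 1 array stood far from the rest of its group by Dixon's 95% criterion, which chance alone meets in about 5% of them. Values are z-scores, and no explanation was tested.

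Among the Rab genes, Rab23 stood apart most often: at 0.82 in 17-21 days AL female replicate 1, at 1.88 in 33-44 days AL male replicate 1 and at 0.25 in 6 months CR male replicate 4, each above the rest of its group. Rab22a stood high at 1.33 in 16 months CR male replicate 4, and Rab12 at 0.99 in the mean of the near-identical arrays of 16 months AL. Rab11b stood low at 1.63 in 17-21 days AL male replicate 2, and Rab40c at -0.43 in 24 months AL female replicate 5 lay apart from its group.

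Among the SNARE proteins and their regulators, Vamp8 stood high at 1.24 in 6 months AL male replicate 4. Stx5a stood apart at -0.40 in 17-21 days AL male replicate 2 and at -0.11 in 6 months AL male replicate 5, and Stxbp5 at -0.17 in 17-21 days AL male replicate 1.

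Among the sorting nexins and Vps proteins, Snx29 stood high at 0.57 in 6 months AL male replicate 5 and low at -0.26 in 6 months CR male replicate 2. Snx30 stood apart at -0.74 in 24 months AL female replicate 5 and Snx5 at -0.51 in 17-21 days AL female replicate 2. Vps35 stood low at 0.44 in 24 months CR female replicate 3, and Vps41 at -0.60 in 16 months CR female replicate 4.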

How the results depend on the processing

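The count of members past the adjusted limma threshold was 0 in each of the 12 comparisons, and stayed 0 under every alternative run except the following. For 33-44 against 17-21 days AL it was 1 with array number as a block and 0 to 4 when each array was left out (1 without 33-44 days AL male replicate 2 or 17-21 days AL female replicate 2, 4 without 33-44 days AL female replicate 1). For 6 months against 33-44 days AL it was 0 to 1 when each array was left out (1 without 33-44 days AL female replicate 1). The study's selection in part, which uses no adjusted p, gave 1 for 6 months against 33-44 days AL, 1 for 24 against 16 months AL, 3 for 24 against 6 months AL, 1 for 24 against 16 months CR and 1 for the sexes.

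Of the values of named genes under an alternative, 2482 kept direction and call, 79 changed sign and 7 passed the threshold only there. Centring each array on its median and quantile normalization turned none. The cause of the changes was not tested. In z units, the values that changed sign were these.

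On the arrays from 46 on alone: for 24 against 16 months AL, Rab12 0.132, Rab40c -0.125, Snx5 0.0625 and Vps41 0.0025; over the diets, Snx3 0.0075, Stx5a 0.0583 and Tbc1d1 0.0025; Vamp8 0.0325 for CR at 6 months, Rab3d 0.035 for 16 against 6 months AL, Rab23 0.06 for 6 months against 33-44 days AL, and Rab12 -0.0075 in the interaction. On the arrays below 46 alone: Rab11b 0.00333 and Stxbp5 0.02 for 24 against 16 months AL, and Arf3 0.00972, Stxbp5 -0.0207 and Sv2a 0.00444 over the diets.

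With the mean of a gene's probes: Rab40c -0.0075 and Vps41 0.086 for 24 against 16 months AL, Vps41 0.0783 for 24 against 16 months CR, and Rab11a -0.00885 over the diets. With neighbour subtraction, with or without blocks, for 24 against 16 months AL: Rab11a 0.0287, Snx5 0.0499, Stxbp5 0.00367, Sv2a -0.0553 and Vps41 0.0471. With blocks also, over the diets: Stx5a 0.00392 and Sytl4 -0.00737. Without the near-identical arrays, for 24 against 16 months AL: Rab12 0.0978, Rab40c -0.029, Snx5 0.03, Stxbp5 0.048 and Vps41 0.0125; and Rab12 0.0278 for CR at 16 months and Rab11a -0.0244 over the diets.

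With each array left out in turn, for 24 against 16 months AL, Rab11a ran from -0.177 to 0.006, Rab40c from -0.0222 to 0.0403, Rab5a from -0.03 to 0.0625, Snx5 from -0.0545 to 0.0125, Snx8 from -0.007 to 0.068, Stxbp5 from -0.0408 to 0.0212, Tbc1d23 from -0.0327 to 0.165 and Vps41 from -0.0482 to 0.004, and Sv2a over the diets from -0.041 to 0.000917. No paired analysis was possible because each array held 1 mouse of 1 age on 1 diet and the replicate numbers were given in the order of the samples.

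The deposited scores give no signal over background and no depth, and the number of arrays, 2 to 5 in a group, limited the precision.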
